A study of Mus musculus with 5 samples.

Results

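The genes examined were those whose mouse name is Zfp followed by a number, the systematic name of zinc finger protein genes, in follicular regulatory T (Tfr) cells with and without Cebpa. Members were all annotated genes with such a name, other than Zfp36, whose TPM was at least 2 in at least 2 of the 5 libraries. TPM is a transcript level corrected for gene length and library total. Of 57186 annotated genes, 393 had such a name and 268 met the threshold. The other 125 did not, and 15 of these were listed at 0 in every library. The 268 genes carry 267 names, because Zfp783 is annotated as a pair of overlapping genes whose reads cannot be told apart. The threshold used the level and not the contrast: 232 members passed it in every library, 11 through WT libraries only and 1 through Cebpa_KO libraries only. The members just inside it were Zfp976 and Zfp114, with a second highest TPM of 2.01 and 2.03, and the genes just outside were Zfp526 and Zfp827, with 2.00 and 1.90.

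Most of these genes encode C2H2 zinc finger proteins, in which repeated fingers each hold a zinc ion and read a few bases of DNA, so that an array of fingers recognises a long sequence. The largest class in mammals carries a KRAB domain at its start. KRAB binds the scaffold protein Trim28, which brings the histone methyltransferase Setdb1, HP1 proteins and DNA methyltransferases, and these silence transposable elements and some imprinted or developmental genes. KRAB genes multiplied by local duplication and lie in chromosome clusters. Other proteins that share the Zfp name lack KRAB and act in transcription, RNA processing, ribosome assembly or ubiquitin transfer.

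The Cebpa_KO group had 2 libraries from Foxp3-Cre Cebpa-flox/flox mice, in which Cre, made under Foxp3 control, removes Cebpa in cells that express Foxp3; Cebpa encodes C/EBP alpha, a bZIP transcription factor. The WT group had 3 libraries from Foxp3-GFP reporter mice, so the groups differ in the Foxp3 allele (Cre against GFP) as well as in Cebpa. In both, splenic CD4 T cells positive for Foxp3, CXCR5, PD-1 and ICOS were sorted on day 21 of a response to imiquimod, which activates TLR7. Every library combined cells of more than 2 mice, and the tests see variation among pools rather than among single mice. In such bulk RNA fewer cells of a type and less RNA per cell cannot be told apart. The comparison asked how the transcriptome of Tfr cells differs when C/EBP alpha is missing, in a study that links this factor to IL-6.

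Aligned depth was 6.76 to 7.08 gigabases per library. Levels below are scaled TPM. Cebpa (ENSMUSG00000034957) was at 0.317 and 0.550 in Cebpa_KO, against 12.9, 17.7 and 12.8 in WT (log2 difference -3.42, standard error 0.20, limma adjusted p = 0.00371, and 0.0512 without Cebpa_KO replicate 2). An exact two-sided permutation test gave p = 0.1, the smallest that 10 splits allow. All 10 T cell and Tfr markers were detected in every library, but 8 were called lower in Cebpa_KO, Foxp3 among them, at 6.74 and 5.58 in Cebpa_KO against 83.0, 107.3 and 104.8 in WT. Sex followed genotype: 4 Y genes summed to 0 and 0.0311 in Cebpa_KO and to 151.4 to 162.3 in WT. The 10 heat shock and immediate early genes of the handling list summed to 5141 to 5391 in Cebpa_KO and to 833.3 to 4192 in WT, where replicate 3 was the high library, and 1 of them (Atf3) was called higher. Summed B cell markers were 57.3 to 262.9 in Cebpa_KO and 133.8 to 186.2 in WT, with Pax5 at 0.520 or less in every library. Plasma cell markers were 1726 to 4611 in Cebpa_KO and 778.2 to 9596 in WT, and myeloid markers 104.0 to 355.8 in Cebpa_KO and 68.1 to 169.6 in WT. CD8 and NK markers were 396.8 to 503.0 in Cebpa_KO and 289.9 to 680.3 in WT, and erythroid markers 210.2 to 1884 in Cebpa_KO and 54.9 to 636.7 in WT. Of the genes in these 5 lists, Cd22 and Klrb1c were called lower and none higher. The part of sex, handling and other cells in the results below was not tested, beyond the values given there.

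The zinc finger genes were as a family lower in Cebpa_KO. Of the 268 members, 39 were called lower (14.6%) and 5 higher (1.87%), against a background over all 16254 genes tested of 9.82% lower and 9.93% higher (limma, Benjamini-Hochberg adjusted p under 0.05). Most of the difference was small and broad. The median log2 difference of the members was -0.32, against 0.01 for all genes tested, and 208 members lay below 0 (77.6%), against 49.1% of all genes. In 144 members both Cebpa_KO libraries lay below all WT libraries and in 18 above them, which is 53.7% and 6.72%, where the background over all genes tested was 28% and 28.7%. Of the 12 members that passed the threshold in 1 group only, 3 were called, all lower, and the 256 others had 36 lower calls, 5 higher calls and a median of -0.30.

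The shift was present in both Cebpa_KO libraries. Summed over the members, the level was 3311 and 3393 TPM in Cebpa_KO, against 3938, 3849 and 3846 TPM in WT, and the median member stood at 6.93 and 7.48 TPM in Cebpa_KO and 9.53, 9.20 and 8.30 TPM in WT. Relative to the mean of the WT libraries, 214 and 208 members were lower in Cebpa_KO replicates 1 and 2, against 102, 126 and 158 members in WT replicates 1, 2 and 3. The WT mean includes each WT library, so the WT counts are near the middle in part by construction. Set against WT replicate 3 alone, the WT library with the high heat shock level, the median log2 difference of the members was -0.27, both Cebpa_KO libraries lay below it in 181 members (67.5%) and above it in 51 (19.0%), and for all genes tested those shares were 43.4% and 42.5%.

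**Figure D1:**
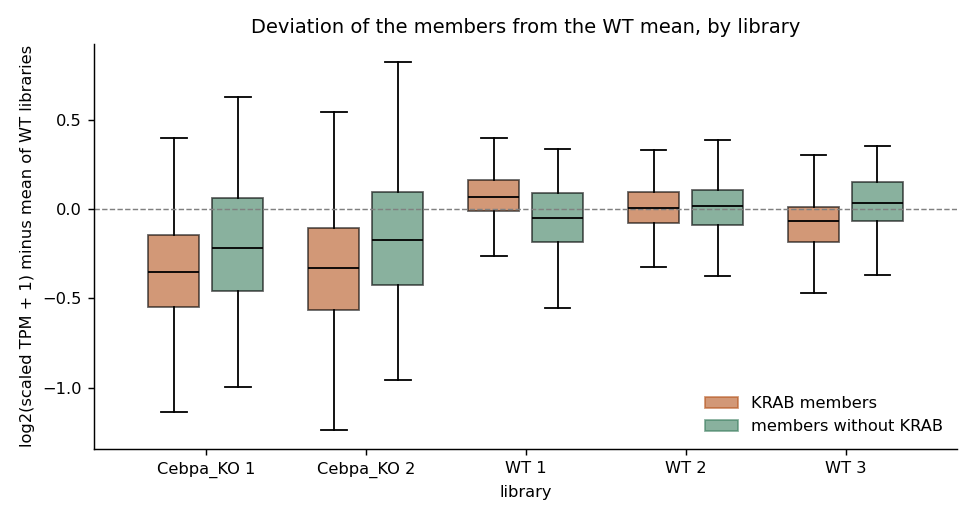
Deviation of each member from the mean of the 3 WT libraries, as log2(scaled TPM + 1), in each library (boxes are quartiles, lines medians and whiskers reach up to 1.5 box lengths; outlying members are not drawn), for 168 KRAB members and 96 members without KRAB. The KRAB medians are -0.35 and -0.33 in the Cebpa_KO libraries and 0.07, 0.01 and -0.07 in the WT libraries.

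The members spanned mean levels of 1.51 to 209 TPM with a median of 8.44. In members of mean level 1 to 5 TPM the median log2 difference was -0.37 (all genes of that level 0.03), in those of 5 to 10 TPM -0.41 (all genes -0.02), in those of 10 to 20 TPM -0.29 (all genes -0.03) and in those of 20 TPM or more -0.17 (all genes 0.02). The members' median was below that of all genes of like level in each of these ranges, and nearest to it in the highest one.

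In the main fit, KRAB members carried most of the lower calls. A KRAB A box was called in the coding sequence of 168 members and not called in 96, and 4 had no coding sequence in the annotation used. The call needs at least 20 matches to a 40-residue consensus. Some members lie near that cut: 13 had 17 to 28 matches, among them Zfp746 with 19 and Zfp180 with 20. Of the KRAB members 31 were called lower (18.5%) and 2 higher (1.19%), with a median log2 difference of -0.38 and 139 below 0 (82.7%). Of the members without KRAB 8 were called lower (8.33%) and 3 higher (3.12%), with a median of -0.19 and 66 below 0 (68.8%). For members without KRAB, both shares were below the background of all genes tested. KRAB members summed to 1397 and 1423 TPM in Cebpa_KO, against 1863, 1756 and 1685 TPM in WT. Members without KRAB summed to 1891 and 1951 TPM in Cebpa_KO, against 2050, 2071 and 2138 TPM in WT. Both sums were below all WT libraries in both Cebpa_KO libraries. KRAB members were also expressed at a lower level, with a median of 6.57 TPM against 13.6 TPM for members without KRAB, and the difference between the classes was not tested. It depended on the WT libraries. Against WT replicates 1 and 2 the median was -0.40 for KRAB members and -0.19 for members without KRAB, but against WT replicate 3 alone -0.26 and -0.28. Without WT replicate 1, 8 KRAB members and 11 members without KRAB were called lower (limma). Without WT replicate 2 these counts were 4 and 0, and without WT replicate 3 they were 40 and 10.

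**Figure D2:**
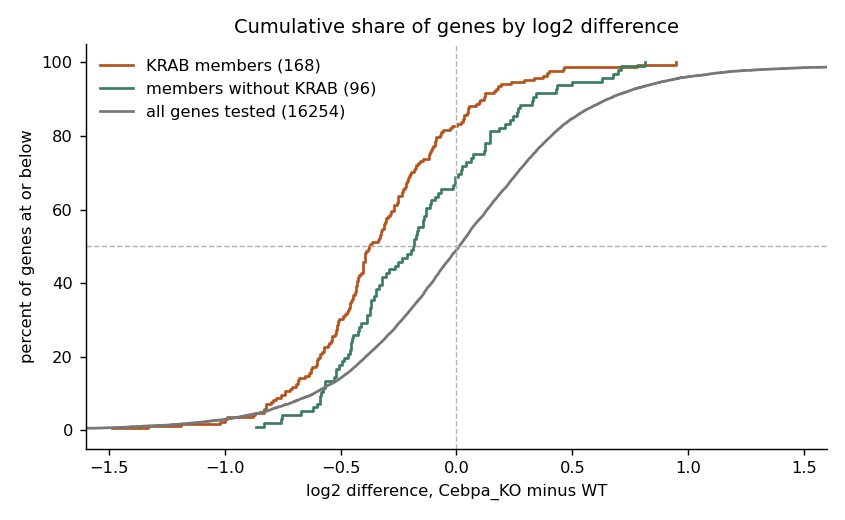
Cumulative percent of genes (y axis) at or below each log2 difference of Cebpa_KO minus WT (x axis), for KRAB members, members without KRAB and all genes tested. The KRAB curve crosses 50% at -0.38, the curve of members without KRAB at -0.19 and that of all genes at 0.01.

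The share of members called lower did not run in order with the number of C2H2 fingers. Over all members the median difference was lowest in the long arrays, but this did not hold among members without KRAB. With 0 to 4 fingers, 7 of 39 members were called lower (17.9%, against 9.82% of all genes tested) and 2 higher, at a median log2 difference of -0.15. With 5 to 9 fingers, 5 of 75 were lower (6.67%) and 2 higher (median -0.25), with 10 to 14 fingers 14 of 89 were lower (15.7%) and 0 higher (median -0.40), and with 15 or more 13 of 61 were lower (21.3%) and 1 higher (median -0.40). KRAB members have more fingers, with a median of 12 against 7 for members without KRAB. From the shortest to the longest of these arrays, 3 of 7, 3 of 39, 13 of 73 and 12 of 49 KRAB members were lower, and 4 of 32, 2 of 36, 1 of 16 and 1 of 12 members without KRAB. In the same order the medians were -0.27, -0.26, -0.40 and -0.40 for KRAB members. For members without KRAB they were -0.12, -0.24, -0.35 and -0.19. The differences between these bins were not tested. Fingers were counted in the longest annotated coding sequence of each gene. The 3 lower KRAB members in the shortest bin were Zfp781, Zfp1001 and Zfp993, with 0, 0 and 2 fingers in 243, 101 and 313 residues. Whether these coding sequences are complete was not tested, so that bin may not hold short arrays only.

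The lower member with the smallest p was Zfp677, a KRAB gene with 16 fingers on chromosome 17 (mm39, 21604010 to 21619527). It was at 13.4 and 13.3 TPM in Cebpa_KO, against 23.5, 23.4 and 24.6 TPM in WT. The libraries of each group were close together and the groups far apart, for a log2 difference of -0.79 (standard error 0.09, limma adjusted p = 0.0096). Zfp27, a KRAB gene with 21 fingers on chromosome 7 (29592758 to 29605997), was at 3.64 and 2.46 TPM in Cebpa_KO, against 8.88, 8.61 and 9.81 TPM in WT. It fell by 1.33 on the log2 scale (standard error 0.18, adjusted p = 0.0117), and all of its transcript windows are unique to it. Both calls were lost when either Cebpa_KO library was left out, as were all 44.

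The neighbouring member of Zfp27 moved the other way. Zfp74, a KRAB gene with 18 fingers, lies 24243 bases upstream of Zfp27, both on the minus strand (29630240 to 29653514). It was at 7.32 and 7.40 TPM in Cebpa_KO, against 3.84, 4.64 and 3.22 TPM in WT (log2 difference 0.78, standard error 0.17, adjusted p = 0.0338). The higher member with the smallest p was Zfp809, the KRAB protein that binds the tRNA primer site of murine leukaemia viruses and recruits Trim28 to silence their proviruses. Zfp809 (chromosome 9) was at 23.6 and 29.7 TPM in Cebpa_KO, against 14.4, 11.04 and 14.7 TPM in WT (log2 difference 0.95, standard error 0.18, adjusted p = 0.0233). Zfp74 and Zfp809 were the KRAB members called higher. Zfp27 and Zfp74 lie on the same chromosome as Cebpa itself (34818718 to 34821353).

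The 250 bases before a transcript start of each of these 4 genes, a pair that fell and a pair that rose, are shown because these KRAB genes lead the calls or neighbour each other. The RefSeq table lists 2 starts each for Zfp27 and Zfp809, of which 1 is shown, and the 50 bases after the Zfp809 start shown were not found in the GENCODE M21 transcripts. The windows are RefSeq sequences of build GRCm38.p6, another build than the gene coordinates above, written 5′ to 3′ on the strand of the gene. Capitals mark CCGGAA, the core that ETS factors bind, CCAAT, bound by NF-Y, and TTGCNNAA, a form of the C/EBP site, each on either strand, and none of these overlap in the windows shown.
Zfp677, chr17:21383498-21383747, plus strand: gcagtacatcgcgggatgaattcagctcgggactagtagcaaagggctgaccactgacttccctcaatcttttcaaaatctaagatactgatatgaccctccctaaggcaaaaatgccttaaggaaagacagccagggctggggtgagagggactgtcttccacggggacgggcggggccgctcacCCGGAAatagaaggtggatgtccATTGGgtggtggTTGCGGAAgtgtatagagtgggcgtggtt
Zfp27, chr7:29906533-29906782, minus strand: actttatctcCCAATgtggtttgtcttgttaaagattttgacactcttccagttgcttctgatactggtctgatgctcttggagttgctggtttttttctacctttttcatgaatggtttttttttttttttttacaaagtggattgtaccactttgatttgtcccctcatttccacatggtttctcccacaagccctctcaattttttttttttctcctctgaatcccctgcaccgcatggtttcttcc
Zfp809, chr9:22225453-22225702, plus strand: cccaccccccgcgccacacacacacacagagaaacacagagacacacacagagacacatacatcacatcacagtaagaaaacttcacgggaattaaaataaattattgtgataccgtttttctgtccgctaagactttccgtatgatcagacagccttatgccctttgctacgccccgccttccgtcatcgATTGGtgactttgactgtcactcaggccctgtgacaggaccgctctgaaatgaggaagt
Zfp74, chr7:29954066-29954315, minus strand: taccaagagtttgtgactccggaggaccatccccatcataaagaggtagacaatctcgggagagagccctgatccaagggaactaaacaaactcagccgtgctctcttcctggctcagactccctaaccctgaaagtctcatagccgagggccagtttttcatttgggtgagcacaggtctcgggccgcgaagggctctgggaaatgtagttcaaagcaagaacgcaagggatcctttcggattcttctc
The Zfp677 window holds all 3 patterns, the Zfp27 and Zfp809 windows hold CCAAT, and the Zfp74 window holds none of them. CpG pairs number 10 in Zfp677, 1 in Zfp27, 11 in Zfp809 and 9 in Zfp74.

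Over the family, promoters matched for 219 names, some with several starts, and gave 264 windows. CCGGAA stood in 41.4% of the KRAB windows and 21.2% of the windows of members without KRAB, against 22.8% for all genes tested and 12.03% for all RefSeq promoters in the table. CCAAT stood in 54.3% and 36.4%, against 36.1% and 33.8%. TTGCNNAA stood in 3.70% and 6.06%, against 7.66% and 9.56%. Among members called lower, 2 of 37 windows held TTGCNNAA (5.41%), against 10 of 222 windows of members not called (4.50%). These are matches of letters in a short window, given as a description.

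**Figure D3:**
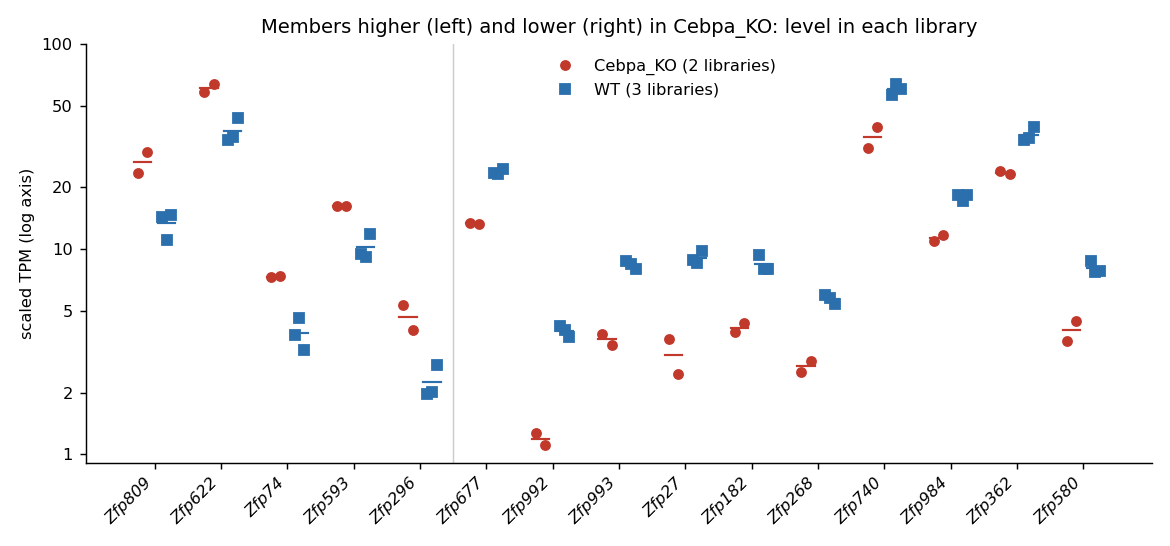
Level in each library, as scaled TPM on a log axis, of the 5 members called higher and the 10 lower members with the smallest p in Cebpa_KO (red circles, 2 libraries, left of each name) and WT (blue squares, 3 libraries, right); short lines are group means. The genes were chosen among called members whose groups do not overlap, and Zfp622 and Zfp740 stand at the highest levels. Zfp992 is a member through WT libraries only.

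Behind Zfp677, the falls with the smallest p were led by KRAB genes on distal chromosome 4. Zfp992 was at 1.27 and 1.12 TPM in Cebpa_KO, against 4.22, 4.04 and 3.75 TPM in WT (log2 difference -1.19, adjusted p = 0.0097). Zfp992 met the member threshold through WT libraries only, so its place among the members rests on its WT level. Zfp993 was at 3.88 and 3.41 TPM in Cebpa_KO, against 8.75, 8.43 and 8.03 TPM in WT (-1.02, adjusted p = 0.0111). Zfp268 and Zfp984 of the same region differed by -0.87 and -0.62, and Zfp991 by -0.47 without being called. These 5 genes share sequence with other genes: between 14.1% and 57.0% of the transcript windows of each are unique to it. The authors' quantification could have divided reads between each of them and the genes that share its windows, so each single value is uncertain. Which genes share the windows was not tested.

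Other falls were on genes with unique sequence. Zfp182, a KRAB gene on the X chromosome, was at 3.94 and 4.36 TPM in Cebpa_KO, against 9.32, 8.03 and 8.03 TPM in WT (log2 difference -0.88, adjusted p = 0.0165). Zfp275, the other X-linked member, was at 2.82 and 2.75 TPM in Cebpa_KO, against 3.30, 4.57 and 4.98 TPM in WT and was not called (-0.47, adjusted p = 0.139). No member lies on the Y chromosome, and with both sex chromosomes left out of the fit 38 members were lower and 5 higher. The largest fall in size was Zfp169, at 3.17 and 0.818 TPM in Cebpa_KO, against 7.80, 6.77 and 5.74 TPM in WT (-1.49, standard error 0.37, adjusted p = 0.0469), where the Cebpa_KO libraries differed widely from each other. It was named after its value was seen.

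Falls without KRAB were fewer but included abundant genes. Zfp740 was at 31.3 and 39.5 TPM in Cebpa_KO, against 56.5, 64.0 and 60.3 TPM in WT (log2 difference -0.76, adjusted p = 0.0190). Zfp362 was at 23.9 and 23.1 TPM in Cebpa_KO, against 33.9, 34.8 and 39.2 TPM in WT (-0.59, adjusted p = 0.0202). Zfp580, with 3 fingers, was at 3.56 and 4.48 TPM in Cebpa_KO, against 8.77, 7.76 and 7.81 TPM in WT (-0.87, adjusted p = 0.0203). Groups that do not overlap were a condition for naming these genes among the falls.

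Most of the 10 most abundant members were not called. Zfp207, a spindle and splicing protein that binds the checkpoint protein Bub3, was the most abundant at 209.0 and 231.2 TPM in Cebpa_KO, against 215.4, 187.4 and 203.0 TPM in WT, and the groups overlapped (log2 difference 0.12, adjusted p = 0.388). Zfp706 followed at 117.1 and 121.5 TPM in Cebpa_KO, against 111.9, 100.8 and 102.7 TPM in WT (0.18, adjusted p = 0.169). Among the 10 most abundant members, Zfp414 and Zfp740 were called lower and Zfp622 higher. Zfp414 was at 68.0 and 66.5 TPM in Cebpa_KO, against 84.2, 86.3 and 90.7 TPM in WT (-0.37, adjusted p = 0.0298). The other 5 (Zfp330, Zfp53, Zfp410, Zfp110 and Zfp263) were not called, with differences of -0.19, -0.09, 0.07, -0.40 and -0.25. Of these, Zfp410 is known as the activator of Chd4, a subunit of the NuRD repressor complex, and Chd4 was at 20.2 and 20.8 TPM in Cebpa_KO, against 19.4, 27.95 and 25.3 TPM in WT (-0.22, adjusted p = 0.397).

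Members that work on RNA, ribosomes or ubiquitin included 2 of the higher calls. Of 12 such genes, 2 were called higher and 0 lower (limma; 9.93% and 9.82% of all genes tested), and their median log2 difference was 0.16. Zfp622, the counterpart of a yeast protein (Rei1) needed to finish the large ribosomal subunit, was at 58.1 and 63.8 TPM in Cebpa_KO, against 33.9, 35.2 and 43.4 TPM in WT (log2 difference 0.69, standard error 0.13, adjusted p = 0.0253). Zfp593, whose yeast counterpart (Bud20) helps export the large subunit, was at 16.2 and 16.2 TPM in Cebpa_KO, against 9.52, 9.21 and 11.9 TPM in WT (0.63, adjusted p = 0.0386). In both genes the Cebpa_KO libraries lay above all WT libraries, which was also a condition of the rule that named the higher calls. The other 10 were not called. Zfp598, the ubiquitin ligase of collided ribosomes, differed by -0.11, Zfp346, which binds double-stranded RNA, by -0.39, and Zfp638, a silencer of unintegrated retroviral DNA, by -0.37. Zfp830, a splicing factor, differed by 0.14, Zfp106 by 0.32, Zfp326 by 0.26, Zfp451, a SUMO ligase, by 0.12, and Zfp91, a ubiquitin ligase of the non-canonical NF-kB pathway, by 0.21.

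The remaining higher call was Zfp296, known from pluripotent cells as a partner of Klf4. It was at 5.33 and 4.06 TPM in Cebpa_KO, against 1.97, 2.02 and 2.74 TPM in WT (log2 difference 0.81, standard error 0.19, adjusted p = 0.0400). All 5 higher calls, Zfp809, Zfp622, Zfp74, Zfp593 and Zfp296, were lost without WT replicate 1, without WT replicate 2 and without either Cebpa_KO library, where 0 members were called higher (5 to 8 at an unadjusted p under 0.05, limma). Without WT replicate 3, 6 members were higher.

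Of the KRAB proteins with known DNA targets, 5 of 6 were expressed. Zfp809 was called higher, as above, and Zfp932, which represses endogenous retroviruses, was called lower, at 10.5 and 10.9 TPM in Cebpa_KO, against 18.6, 15.6 and 16.0 TPM in WT (log2 difference -0.59, adjusted p = 0.0304), although 63.0% of its windows are unique. Zfp445, which keeps imprints together with Zfp57, was at 11.1 and 13.1 TPM in Cebpa_KO, against 14.1, 18.9 and 16.9 TPM in WT (-0.42, adjusted p = 0.120). Zfp57 itself was at 0.054 TPM or less in every library and is no member. Zfp568, the repressor of a placental Igf2 transcript, was at 2.20 and 2.92 TPM in Cebpa_KO, against 1.09, 1.78 and 1.94 TPM in WT (0.46, adjusted p = 0.186), and Zfp708 differed by -0.25 with 5.14% unique windows. The 5 tested genes lay on both sides of 0.

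Members with roles in lymphocytes or chromatin had a median near that of the whole family, which was -0.32 over the 268 members. Of 17 tested, 14 of them members, 1 was called lower and 0 higher (limma), where 9.82% of all genes tested were lower and 9.93% higher, and the median log2 difference was -0.34. Zfp281, a repressor of G-rich promoters that binds the NuRD complex, was at 26.8 and 25.8 TPM in Cebpa_KO, against 37.4, 36.8 and 41.0 TPM in WT (-0.53, standard error 0.09, adjusted p = 0.0207). Zfp148, its close relative, was at 19.3 and 19.7 TPM in Cebpa_KO, against 18.7, 20.9 and 13.8 TPM in WT (0.14, adjusted p = 0.609). Zfp335, needed for T cell maturation in the thymus, was at 16.7 and 17.9 TPM in Cebpa_KO, against 17.8, 26.02 and 27.5 TPM in WT (-0.41, adjusted p = 0.201). Zfp292, Zfp687 and Zfp592 differed by -0.59, -0.59 and -0.57 with groups that did not overlap and an adjusted p of 0.062, 0.092 and 0.105. Zfp143, a factor at promoters and chromatin loops, differed by -0.09, Zfp131 by 0.04, Zfp384 by -0.27, Zfp217 by -0.35, Zfp652 by -0.34, Zfp407 by -0.19, Zfp219 by -0.49 and Zfp644 by 0.24.

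The machinery that KRAB proteins recruit had a median near that of all genes. Of 22 silencing cofactors tested, 1 was called lower and 0 higher (limma, against 9.82% lower and 9.93% higher of all genes tested; 5 were higher and 2 lower at an unadjusted p under 0.05), and the median log2 difference was 0.02. Trim28, the KRAB scaffold, was at 77.3 and 56.2 TPM in Cebpa_KO, against 58.3, 73.1 and 70.6 TPM in WT (-0.02, adjusted p = 0.933). Setdb1, the histone methyltransferase, was at 17.9 and 16.2 TPM in Cebpa_KO, against 14.5, 18.9 and 17.5 TPM in WT (0.01, adjusted p = 0.959). In both the groups overlapped. The gene called was Atf7ip, the partner that stabilises Setdb1 in the nucleus, at 27.9 and 39.6 TPM in Cebpa_KO, against 66.6, 81.0 and 60.3 TPM in WT (-1.03, standard error 0.20, adjusted p = 0.0246). The Atf7ip call was lost without WT replicate 1, WT replicate 2 or either Cebpa_KO library, with an adjusted p between 0.0652 and 0.134.

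The lower calls lay on many chromosomes but unevenly. They were 6 of 12 members on chromosome 4, 7 of 67 on chromosome 7 and 0 of 17 on chromosome 6. Runs of at least 3 members that start at most 500 kb apart formed 25 clusters on mm39, with 153 members in all, 124 of them KRAB, and 10 of the clusters lie on chromosome 7. In clusters 24 of 153 members were called lower (15.7%) and 2 higher (1.31%), with a median log2 difference of -0.32. Outside clusters 15 of 115 were lower and 3 higher (median -0.31). KRAB members differed by a median of -0.36 in clusters and -0.39 outside them, and members without KRAB by -0.18 and -0.19. Of the 25 clusters 23 had a median below 0, 13 held a lower call, 2 held a higher call, and in 20 the summed level was below every WT library in both Cebpa_KO libraries. A like share over runs of other genes was not taken. Members that passed the threshold through WT libraries only are counted here, and all 11 of them lay below 0.

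The largest cluster spans chromosome 17 from 21229165 to 23783212 and holds 19 KRAB members, Zfp160 to Zfp213. Of these 18 lay below 0 and 3 were called lower, namely Zfp677, Zfp52 and Zfp983, while Zfp946 was the highest at 0.17. Its summed level was 244.9 to 247.5 TPM in Cebpa_KO, against 291.9 to 331.7 TPM in WT. The cluster on chromosome 13 from 67186660 to 67975121 holds 15 KRAB members, of which 14 lay below 0 and 4 were called lower (Zfp712, Zfp429, Zfp87 and Zfp85). Its summed level was 80.4 to 82.2 TPM in Cebpa_KO, against 104.0 to 133.6 TPM in WT. The member differences in both clusters lay between -0.83 and 0.17. The lowest of these, Zfp759 on chromosome 13, and its cluster neighbour Zfp456 met the member threshold through WT libraries only.

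The cluster of Zfp27 and Zfp74, on chromosome 7 from 29467977 to 29869175, was mixed. Of its 13 members, 9 lay below 0, Zfp27 and Zfp260 were called lower and Zfp74 higher. Zfp568 and Zfp14, the next members along the chromosome, were higher in both Cebpa_KO libraries than in all WT libraries without being called (0.46 and 0.34), and Zfp566 likewise (0.39). Its summed level was 114.7 to 115.3 TPM in Cebpa_KO, against 131.5 to 150.9 TPM in WT. Cebpa, the gene targeted in the Cebpa_KO mice, lies on the same chromosome at 34818718 to 34821353. Whether the DNA around the targeted gene differs between the groups was not tested.

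Among smaller clusters, the lowest median was that of 4 KRAB members on chromosome 2 (149956326 to 150293406, Zfp120 to Zfp442), at -0.67, with summed levels of 19.0 to 19.3 TPM in Cebpa_KO and 25.98 to 38.9 TPM in WT. The 3 KRAB members on chromosome 7 from Zfp141 to Zfp975 had a median of -0.64. Among them Zfp976 met the member threshold through WT libraries only, and without it the run would be too short for a cluster. The 4 KRAB members on chromosome 10 from Zfp433 to Zfp938 had a median of -0.61, and the 3 on chromosome 5 from Zfp1007 to Zfp605 of -0.60. In these 4 clusters, in the same order, the median share of unique windows was 75.7%, 79.6%, 57.3% and 91.5%. The run of 4 genes on chromosome 7 from Zfp579 to Zfp580 has no KRAB member and had a median of -0.58. In the other direction stood the cluster of Zfp809 on chromosome 9 from Zfp653 to Zfp810, with a median of 0.24, and the 3 members on chromosome 18 from Zfp397 to Zfp24, with 0.02.

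**Figure D4:**
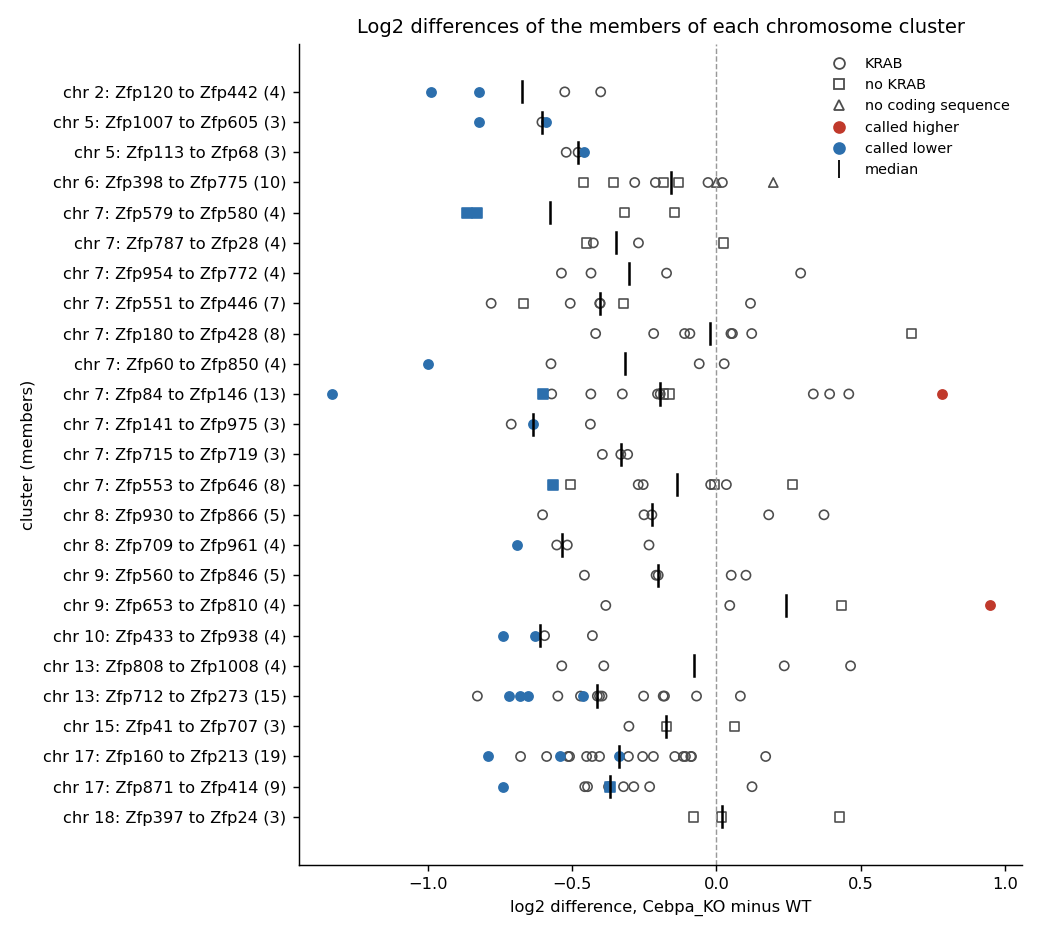
Log2 difference of Cebpa_KO minus WT (x axis) for each member of the 25 chromosome clusters (rows, named by chromosome and by first and last member, with the number of members); circles are KRAB, squares no KRAB and triangles no coding sequence, filled blue where called lower and red where called higher, and the black bar is the cluster's median. In 23 rows the median lies below 0, and the rows of Zfp74 and Zfp809 hold the red points.

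Lower calls were more frequent among members that share sequence with other genes. Of 267 members with a value, 53 had under 90% of their 50-base transcript windows unique to them, and of these 16 were called lower (30.2%) and 0 higher, with a median log2 difference of -0.40 (limma). Of the other 214 members 23 were lower (10.7%) and 5 higher (2.34%), with a median of -0.29 and 161 below 0 (75.2%). Their share of lower calls was near the 9.82% of all genes tested, their share of higher calls was under the 9.93% of all genes, and their median was below the 0.01 of all genes. The part of shared reads in the lower calls was not tested. KRAB members in that group had 16 of 121 called lower and a median of -0.33, and members without KRAB 7 of 92 and -0.18. Leaving out WT replicate 1, WT replicate 2, Cebpa_KO replicate 1 and Cebpa_KO replicate 2 left 19, 4, 0 and 0 members called lower (47 and 50 at an unadjusted p under 0.05 without a Cebpa_KO library, limma), and WT replicate 3 left 50. The median of the members lay between -0.32 and -0.27 in these 5 fits.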

How the data were processed

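Libraries were made from pooled sorted cells with SMART-Seq v4 and Nextera XT, per the labels' protocols. Reads were aligned to mm39 with STAR 2.7.11b and quantified with StringTie 2.1.3b, per the submitters' processing notes. No source used here gives the annotation release, the read length or the use of strand. The deposited tables give a TPM score for each gene, an FPKM value and a coverage signal (units per the file headers). The TPM column deposited by the authors sums to 1000000 over assembled loci and repeats 96.7% to 97.6% of it in annotated rows, so it was treated as a score. FPKM and coverage as deposited served for depth only. No read counts were used, so no count model or counting interval was possible. Precision rests on the spread between 2 Cebpa_KO and 3 WT libraries.

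TPM was scaled by median ratios (factors 0.998 and 1.01 for Cebpa_KO, and 0.994, 1.04 and 0.984 for WT) and tested as log2(scaled TPM + 1) in R 4.3.3 by limma 3.58.1, its variance prior following a trend with intensity, over 16254 annotated genes with TPM of at least 1 in at least 2 libraries. Fold changes are on that log2 scale, which understates the change of low genes. P-values were adjusted by Benjamini-Hochberg over all genes tested and called under 0.05. The test was also run on simulated data with the means and spread of the real genes. It called 48 of 100 genes changed by a log2 difference of 1 and 92 of 100 changed by 2, with 3 false calls. Genes of low level were not among those changed. Each gene was drawn independently, so effects that many genes of a library share were not simulated. Figures and tables used Python 3.11.15, pandas 2.3.3, numpy 2.4.6 and matplotlib 3.10.9.

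A KRAB box was called at 20 or more matches to a 40-residue consensus in translated GENCODE M21 coding sequences. The plan had been RefSeq proteins, which were not used here. Fingers were counted in the longest of these sequences for each gene. Unique windows are the percent of 50-base windows of a gene's GENCODE M21 transcripts found in no other gene. The 11 motifs searched on both strands included those of ETS factors, NF-Y and C/EBP spelled out above. The members and gene lists were chosen with earlier results of these data known. Genes named are the 10 members with the smallest p in each direction among called members whose groups do not overlap (5 were higher), the 10 most abundant, members of the Zfp lists and of the sex chromosomes, the called cofactors with Trim28 and Setdb1, the members at the threshold, and the extremes of clusters; others were chosen after their values were seen. Alternatives covered pseudocount, filter, scaling, limma settings, left-out libraries, a replicate block, the member threshold and the cluster gap. The fits without chromosomes X and Y, with unique members only and without WT replicates 1 and 2 were added after seeing the data.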

Additional observations from a re-analysis of the deposited data

How the results depend on the processing

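The main counts (limma) were 5 members higher and 39 lower, and all 44 called members kept their sign in every alternative fit, but the number of calls depended on the processing and on single libraries. The cause was not tested. Calls over all genes moved with them: 1614 higher and 1596 lower in the main fit, 930 and 629 without a filter, 2575 and 2440 with array weights, 1014 and 647 without WT replicates 1 and 2, 9 and 25 without Cebpa_KO replicate 1, and 5 and 18 without Cebpa_KO replicate 2. Without a filter on low values, 0 members were higher (8 at an unadjusted p under 0.05) and 14 lower. With array weights 75 were lower, and among members with at least 90% unique windows 23. Without WT replicates 1 and 2, 0 were higher and 3 lower (9 and 60 at an unadjusted p under 0.05), with the remaining WT library assumed to vary like the Cebpa_KO libraries. Leaving out 1 library at a time gave 0 to 6 members higher and 0 to 50 lower, 0 in both directions without either Cebpa_KO library.

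For KRAB members the same settings gave 0 higher and 11 lower without a filter, 55 lower with array weights, and 0 and 1 without WT replicates 1 and 2; single libraries left out gave 0 to 2 higher and 0 to 40 lower. For members without KRAB they gave 0 and 3 without a filter, 20 lower with array weights, and 0 and 2 without WT replicates 1 and 2; single libraries left out gave 0 to 4 higher and 0 to 11 lower. Cofactor counts moved to 4 higher and 2 lower with array weights, to 1 higher and 0 lower without WT replicates 1 and 2, to 2 lower with a pseudocount of 5, a filter of TPM 5 or robust estimation, and to 0 lower without a filter; single libraries left out gave 0 to 1 in both directions.

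The median log2 difference of the members was -0.21 with a pseudocount of 5, -0.27 without WT replicates 1 and 2, and -0.32 to -0.27 with single libraries left out. Cebpa was -3.54 with an adjusted p of 0.0512 without Cebpa_KO replicate 2, and -3.54 to -3.27 over the libraries left out. Clusters numbered 21 at a gap of 250 kb and 27 at 1000 kb.

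Whether replicate numbers pair the samples could not be told from the deviations, which correlated at -0.18 for number 1 and 0.27 for number 2. The deviations of the 2 Cebpa_KO libraries from their mean are equal and opposite. Each WT library therefore correlates with them at opposite signs, whether or not the numbers pair. With the replicate block (1359 higher and 1050 lower over all genes) 2 members were higher and 20 lower, KRAB members 0 and 18, members without KRAB 2 lower, and 1 cofactor higher. The absence of read counts limits what can be said of low genes.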
